A study of Mus musculus with 14 samples.

Results

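The 9 genes described here encode receptors of the tumor necrosis factor (TNF) receptor superfamily that regulatory T cells (Tregs) can carry on their surface. They were chosen by symbol and matched by NCBI Gene number, and all 9 were found among the 27179 genes of the count table: Tnfrsf4, Tnfrsf9, Tnfrsf18, Tnfrsf1b, Tnfrsf8, Cd27, Tnfrsf1a, Tnfrsf25 and Fas. The study sequenced polyadenylated RNA of Tregs from mice with MC38 flank tumors, grown from a murine colon carcinoma line and collected at endpoint. Tregs came from spleen or tumor. Each tissue had 4 WT libraries, from mice whose Il23r was unmodified, and 3 Flox libraries, from mice with both Il23r alleles flanked by loxP sites. Both genotypes carried Foxp3-Cre-YFP, which drives the Cre recombinase and the yellow fluorescent protein used for the sort from the Foxp3 gene, so the WT-labelled mice had Cre as well. The sources used here give neither the age of the mice nor whether each library was 1 mouse, so p-values measure the spread between these libraries, which may be partly technical.

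TNF receptors are single-pass membrane proteins that cluster when a trimeric ligand of the TNF family binds them. One branch, which includes the products of Tnfrsf4 (OX40), Tnfrsf9 (CD137), Tnfrsf18 (GITR), Tnfrsf1b (TNFR2), Tnfrsf8 (CD30) and Cd27, recruits TRAF adaptors and signals to NF-kB, and works as costimulation beside the T cell receptor. The other branch, with the products of Tnfrsf1a (TNFR1), Tnfrsf25 (DR3) and Fas, has a death domain in the cytoplasmic tail that can recruit TRADD or FADD, and through them either NF-kB signalling or caspases. OX40, GITR and TNFR2 are known as receptors that Tregs carry at higher levels than resting conventional CD4 T cells, and antibodies to several of these receptors have been tried as tumor therapy.

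The libraries held 4859099 to 10333892 counts. Summed levels of 6 Treg markers (Foxp3, Il2ra, Ctla4, Ikzf2, Cd3e and Cd4) were 2270 to 3826 CPM (counts scaled to a common library size) in spleen and 4726 to 9192 CPM in tumor, and all 6 were detected in every group. Il23r itself had 2 counts in the WT-labelled and 17 in the Flox-labelled tumor libraries, and 2 and 10 in spleen. It was thus not lower with the Flox label, but its levels were very low. In spleen the labels overlapped, at 0 to 0.197 CPM in WT-labelled and 0 to 0.754 CPM in Flox-labelled libraries. In tumor they did not, at 0 to 0.215 and 0.418 to 0.893 CPM. Counts per gene do not tell which exons the reads came from. They therefore cannot show whether Il23r was deleted or whether the labels are right. For this reason the groups are called WT-labelled and Flox-labelled throughout and each direction follows the label. Xist and the Y-linked genes followed the genotype labels in both tissues, apart from the WT replicate 2 libraries, which also held Xist but had 29.2 CPM of Ddx3y in spleen and 127 CPM in tumor, where the remaining WT-labelled libraries had 0 to 0.614 CPM. Of the further Y-linked genes, Kdm5d, Uty and Eif2s3y stood at 2.34 to 3.36 CPM in spleen WT replicate 2 but had only 2 to 3 counts each in tumor WT replicate 2. Genotype and sex cannot be told apart in these libraries.

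In Tregs from tumor, transcripts of 4 of the 6 costimulatory receptors were higher than in Tregs from spleen: Tnfrsf9 6.41-fold, Tnfrsf4 5.39-fold, Tnfrsf18 5.01-fold and Tnfrsf1b 4.85-fold. The death-domain receptor gene Tnfrsf25 was 6.60-fold lower in tumor. Tnfrsf8, Cd27, Tnfrsf1a and Fas did not pass the test. The test was edgeR's quasi-likelihood F test on all 14 libraries with the genotype label as a term, and p-values were adjusted by Benjamini and Hochberg's method over the 12008 genes tested, with a threshold of 0.05. Among all genes tested 22.5% passed, 12.3% higher and 10.2% lower in tumor, so a pass by itself is common in this comparison. The same 5 receptor genes were those whose tumor and spleen libraries did not overlap in CPM, against 9.39% of all genes tested. The median log2 fold change was 1.42 over the 9 receptor genes and 0.03 over all genes tested. Since the 9 were chosen with earlier results of these data known, these shares and medians describe them and are not an independent test. Among WT-labelled libraries alone 5 of the 9 passed, against 7.1% of genes tested there, and among Flox-labelled libraries alone 4 of the 9, against 7.87%. In this order of labels the log2 fold changes were 2.28 and 3.23 for Tnfrsf9, 2.57 and 2.26 for Tnfrsf4, 2.26 and 2.42 for Tnfrsf18, 2.22 and 2.37 for Tnfrsf1b, and -2.52 and -2.99 for Tnfrsf25. In such bulk RNA, fewer cells with a transcript and less transcript per cell cannot be told apart.

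Markers of Tregs and of other cells also differed between the tissues. Of the 6 Treg markers 3 were higher in tumor and 0 lower. Foxp3 itself had means of 172 CPM in WT-labelled and 131 CPM in Flox-labelled spleen, and of 145 and 132 CPM in tumor. In the same order the means were 478, 560, 1754 and 1171 CPM for Il2ra and 111, 86.7, 1283 and 716 CPM for Ctla4. The share of Tregs in the sorts was not tested. Summed levels of 7 B cell markers were 234 to 1710 CPM in spleen and 1.53 to 99.7 CPM in tumor, where Pax5 was at 0 in all 7 libraries, and 5 of the 6 that could be tested were lower in tumor. Summed levels of 4 dendritic cell markers were 0.493 to 2.18 CPM in spleen and 5.43 to 27.2 CPM in tumor, with 1 of 2 tested higher in tumor. The 8 macrophage and monocyte markers summed to 6.72 to 244 and 8.83 to 160.0 CPM, the 4 CD8 T and NK cell markers to 2.99 to 36.7 and 1.97 to 8.57 CPM (Klrb1c at 0 in tumor), the 4 epithelial markers to 3.75 to 23.9 and 0.391 to 4.08 CPM (Krt19 at 0 in both tissues), and the 5 fibroblast and endothelial markers to 55.3 to 164 and 18.2 to 273 CPM (Cdh5 at 0 in spleen). Of these last sets, 2 of 7 tested macrophage and monocyte markers and 2 of 3 tested fibroblast and endothelial markers were higher in tumor. Lower in tumor were 1 of 3 tested CD8 T and NK cell markers and the 1 epithelial marker tested. The part of all these markers in the differences of the receptor genes was not tested.

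**Figure D1:**
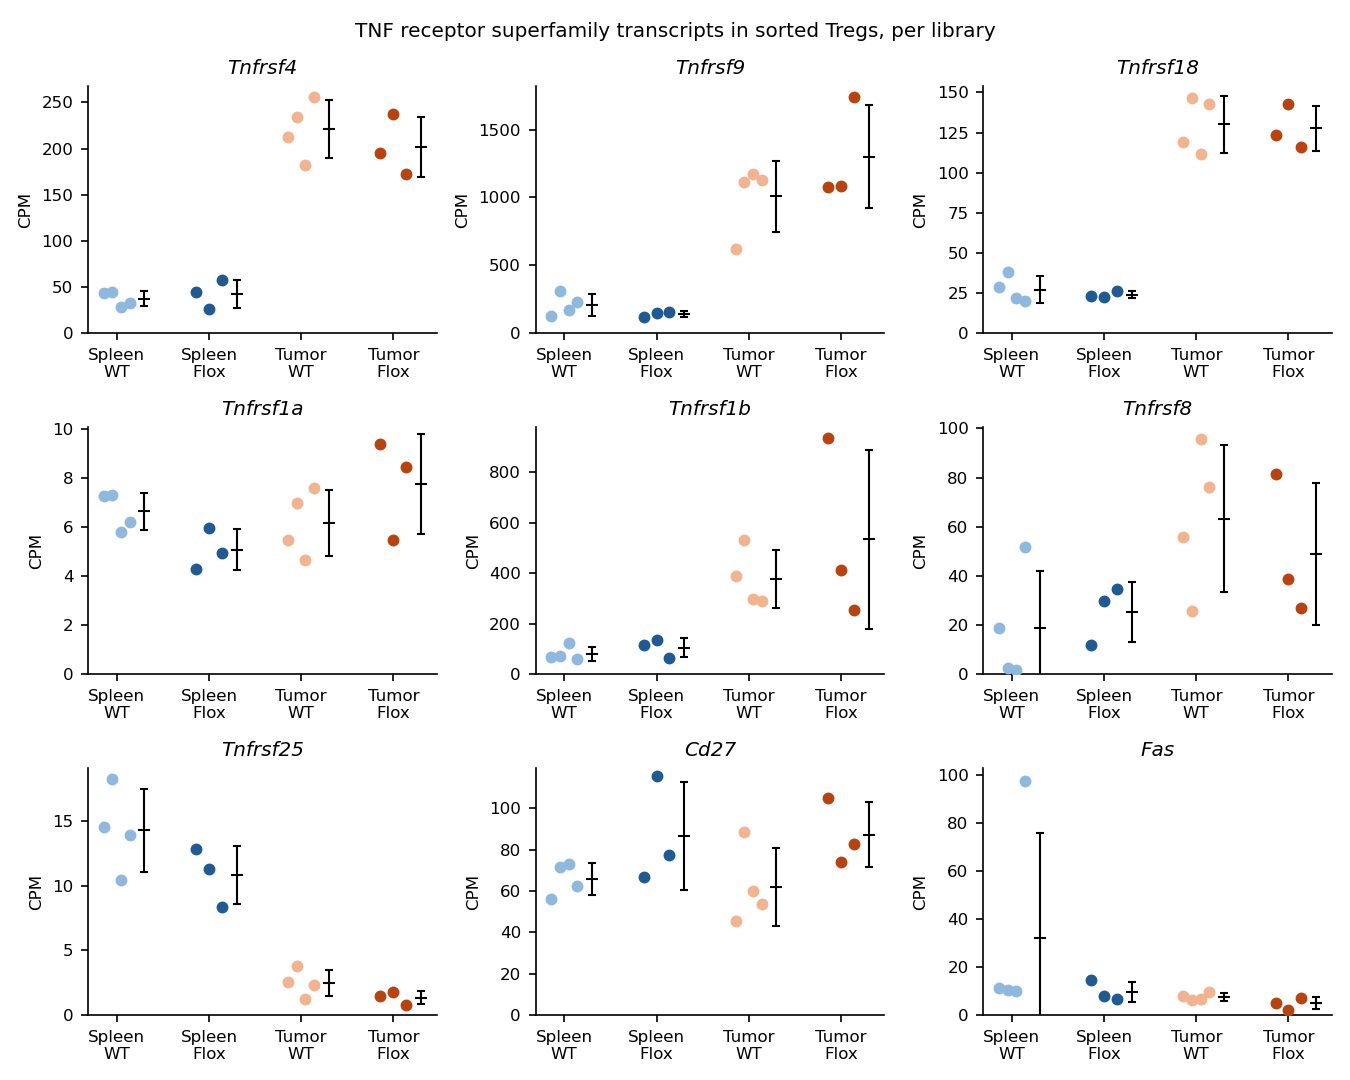
CPM of each of the 9 receptor genes on linear axes that start at 0, with 1 point per library and, beside each group, the mean and SD (bars of Tnfrsf8 and Fas in spleen WT are cut at 0). All 7 tumor libraries lie above all 7 spleen libraries for Tnfrsf4, Tnfrsf9, Tnfrsf18 and Tnfrsf1b and below them for Tnfrsf25, and 1 spleen library stands at 97.4 CPM of Fas.

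Tnfrsf9 (NCBI Gene 21942) encodes CD137, a receptor induced on T cells after activation, whose ligand is the product of Tnfsf9. On GRCm38 it lies on the plus strand of chromosome 4, from 150920155 to 150946104. RefSeq gives it 2 start sites, and the 250 bases before each were searched for motifs on both strands. The bases before the first start, chr4:150919905-150920154, are shown because this gene had the highest level of the 9 and because they held no match to any motif searched:

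Tnfrsf9 first start: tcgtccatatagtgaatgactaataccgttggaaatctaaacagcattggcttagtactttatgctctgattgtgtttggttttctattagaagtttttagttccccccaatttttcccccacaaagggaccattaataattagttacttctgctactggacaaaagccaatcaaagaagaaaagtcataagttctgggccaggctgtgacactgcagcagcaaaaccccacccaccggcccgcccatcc

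Before the second start a match to the NF-kB motif lay 43 to 33 bases upstream, and a match to the AP-1 motif TGAGTCA 15 to 9 bases upstream. Both matches lie within the 81 bases next to this start that are annotated as exon of Tnfrsf9 itself. The NF-kB match is in capitals on chr4:150927947-150927976, plus strand:

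Tnfrsf9 second start: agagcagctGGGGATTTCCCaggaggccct

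In spleen Tnfrsf9 stood at 124, 306, 167 and 231 CPM in the WT-labelled and at 119, 147 and 155 CPM in the Flox-labelled libraries. In tumor it stood at 619.9, 1112, 1171 and 1131 CPM in the WT-labelled and at 1077, 1085 and 1741 CPM in the Flox-labelled libraries. The lowest tumor library, WT replicate 1, was still above the highest spleen library, at 306 CPM, so the groups did not overlap. The log2 fold change was 2.68 ± 0.290 (SE; 95% limits 2.06 to 3.30; adjusted p = 4.25e-05), from 178.5 ± 67.5 CPM in spleen to 1134 ± 327 CPM in tumor (SD, n = 7 and 7).

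Tnfrsf4 (NCBI Gene 22163) encodes OX40, a receptor that prolongs T cell survival after priming and binds the product of Tnfsf4. It lies on the plus strand of chromosome 4 from 156013595 to 156016613, and its first 16 bases overlap the end of Sdf4 on the same strand. In spleen its values were 43.6, 44.8, 28.0 and 32.7 CPM in WT-labelled and 44.1, 26.4 and 57.0 CPM in Flox-labelled libraries. In tumor they were 212, 234, 183 and 256 CPM in WT-labelled and 196, 237 and 172 CPM in Flox-labelled libraries. Every tumor library was above every spleen library, with a wide gap between 57.0 and 172 CPM. The fitted log2 fold change was 2.43 ± 0.279 (SE; 95% limits 1.83 to 3.03; adjusted p = 6.5e-05), with means of 39.5 ± 11.0 and 212.9 ± 31.1 CPM (SD, n = 7 and 7).

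Tnfrsf18 (NCBI Gene 21936), which encodes GITR, a receptor whose engagement can reduce suppression by Tregs, is the neighbour of Tnfrsf4, 9708 bases downstream on the same strand (chromosome 4, 156026322 to 156028894). The predicted gene Gm16008 lies antisense over 2573 bases of it and had 712 counts in all libraries together, against 9086 for Tnfrsf18. The sources used here do not say whether the authors' counting used strand, so reads of the overlap cannot be assigned. The part of its upstream window outside annotated exons, chr4:156026072-156026163, is shown to set it beside those of the other raised receptor genes, and held no match:

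Tnfrsf18: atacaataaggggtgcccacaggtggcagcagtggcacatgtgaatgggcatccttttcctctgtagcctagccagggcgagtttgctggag

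Tnfrsf18 stood at 28.7, 38.0, 21.6 and 20.1 CPM in WT-labelled and 23.3, 22.5 and 26.2 CPM in Flox-labelled spleen libraries. In tumor it stood at 119, 147, 111 and 143 CPM in WT-labelled and 124, 143 and 116 CPM in Flox-labelled libraries. The tumor values had a small spread, and the groups did not overlap. The rise on the log2 scale was 2.33 ± 0.272 (SE; 95% limits 1.74 to 2.91; adjusted p = 7.3e-05), with means of 25.8 ± 6.11 and 129 ± 14.8 CPM (SD, n = 7 and 7).

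Tnfrsf4 and Tnfrsf18 were then compared with each other, as neighbours that both rose. Per kilobase of exon, the level of Tnfrsf4 was 1.57 ± 0.228 times that of Tnfrsf18 in WT-labelled spleen (SD, n = 4) and 1.95 ± 0.579 times in Flox-labelled spleen (n = 3). In tumor the ratio was 1.90 ± 0.111 (n = 4) and 1.76 ± 0.0971 (n = 3), so its spread was smaller there. Spleen libraries also held fewer counts, 174 to 681 of Tnfrsf4 and 107 to 487 of Tnfrsf18. Tumor libraries held 1087 to 2178 and 609 to 1364. The part of these lower counts in the wider spread was not tested. Across the 7 tumor libraries log2 CPM of the pair correlated with Pearson r = 0.898 (exact permutation p = 0.0173) and Spearman rho = 0.821 (exact permutation p = 0.0341), and r was 0.917 without the 2 libraries farthest from the median of Tnfrsf4. Across the 7 spleen libraries r was 0.574 (exact permutation p = 0.177) and rho 0.679 (exact permutation p = 0.11), with r = 0.447 without the 2 farthest. Of 72 such pairs of receptor genes within a tissue, 2 had an exact p under 0.05 and 0 passed after adjustment, where this pair in tumor had an adjusted p of 0.936.

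**Figure D2:**
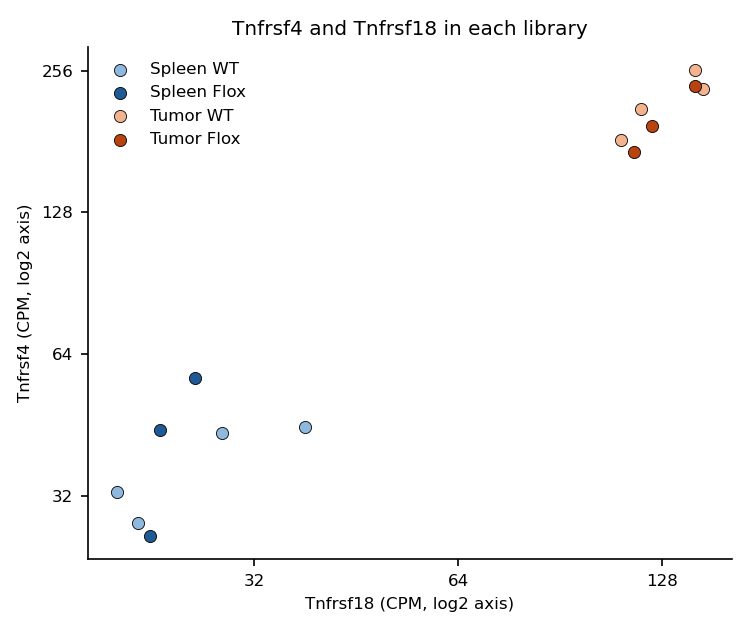
Tnfrsf4 against Tnfrsf18 in CPM on log2 axes, 1 point per library, coloured by group. The spleen libraries sit at 20.1 to 38.0 CPM of Tnfrsf18 and 26.4 to 57.0 CPM of Tnfrsf4, and the tumor libraries at 111 to 147 and 172 to 256 CPM.

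Tnfrsf1b (NCBI Gene 21938) encodes TNFR2, the TNF receptor without a death domain, through which TNF expands Tregs. It lies on the minus strand of chromosome 4 from 145212368 to 145246870, 20261 bases from Tnfrsf8, which is on the same strand. Its upstream window, chr4:145246871-145247120, minus strand, is shown because it held no match to the NF-kB motif although the gene was among the 4 that rose:

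Tnfrsf1b: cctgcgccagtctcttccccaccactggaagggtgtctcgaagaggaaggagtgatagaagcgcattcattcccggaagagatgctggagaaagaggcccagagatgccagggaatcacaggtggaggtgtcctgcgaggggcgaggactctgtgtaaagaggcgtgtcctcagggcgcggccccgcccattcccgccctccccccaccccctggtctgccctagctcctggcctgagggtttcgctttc

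Spleen libraries held 68.9, 73.1, 121 and 59.6 CPM of Tnfrsf1b when labelled WT and 115, 136 and 63.0 CPM when labelled Flox. Tumor libraries held 391, 533, 297 and 288 CPM when labelled WT and 936, 411 and 254 CPM when labelled Flox. Flox replicate 1 from tumor stood well above the other 6, and no tumor library overlapped the spleen values. On the log2 scale it rose by 2.28 ± 0.342 (SE; 95% limits 1.54 to 3.01; adjusted p = 0.000471), with means of 91.0 ± 31.9 and 444 ± 237 CPM (SD, n = 7 and 7). Among Flox-labelled libraries alone the log2 fold change was 2.37 with an adjusted p of 0.0635 in edgeR, so the call was lost there, and without tumor Flox replicate 1 it was 2.01 (adjusted p = 0.00121, edgeR).

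Tnfrsf8 and Cd27 complete the costimulatory branch. Tnfrsf8 (NCBI Gene 21941; chromosome 4, 145267132 to 145315164, minus strand) encodes CD30, a receptor of activated lymphocytes. Its upstream window, chr4:145315165-145315414, is shown because it was the 1 window of the 11 with matches to both the NF-kB motif and the AP-1 motif TGANTCA outside annotated exons, both in capitals:

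Tnfrsf8: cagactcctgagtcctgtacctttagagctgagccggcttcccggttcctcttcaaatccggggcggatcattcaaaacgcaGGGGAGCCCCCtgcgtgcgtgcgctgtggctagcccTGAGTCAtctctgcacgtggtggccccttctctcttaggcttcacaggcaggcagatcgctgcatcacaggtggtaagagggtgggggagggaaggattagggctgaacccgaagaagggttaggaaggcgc

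Tnfrsf8 was uneven between libraries of a group. In spleen it stood at 18.7, 2.34, 1.58 and 51.7 CPM in WT-labelled and 11.6, 29.9 and 34.7 CPM in Flox-labelled libraries. In tumor it stood at 55.9, 25.5, 95.6 and 76.0 CPM in WT-labelled and 81.6, 38.7 and 26.7 CPM in Flox-labelled libraries. Tumor values tended to be the larger but the tissues overlapped, and the log2 fold change of 1.42 ± 0.696 (SE; 95% limits -0.07 to 2.91) had an adjusted p of 0.161 in edgeR. Without spleen WT replicate 4 it was 2.05 (adjusted p = 0.0705, edgeR).

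Cd27 (NCBI Gene 21940; chromosome 6, 125232620 to 125237136, minus strand) encodes the receptor for CD70 that naive and memory T cells carry. Spleen libraries held 56.3, 71.9, 72.9 and 62.6 CPM in the WT-labelled and 66.6, 116 and 77.3 CPM in the Flox-labelled group. Tumor libraries held 45.3, 88.7, 60.0 and 53.9 CPM in the WT-labelled and 105, 74.2 and 82.8 CPM in the Flox-labelled group. The tissues overlapped almost fully, at 74.8 ± 19.4 and 72.9 ± 21.1 CPM (SD, n = 7 and 7). The log2 fold change of -0.04 ± 0.274 had 95% limits of -0.63 to 0.54 (adjusted p = 0.928, edgeR). The gene E130112N10Rik overlaps all 4517 bases of Cd27 in the annotation and had 3355 counts against 9307, and reads of the overlap cannot be assigned without the counting rule.

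Of the 3 death-domain receptor genes, Tnfrsf25 fell. It encodes DR3, the receptor for the product of Tnfsf15, whose engagement expands Tregs in mice (NCBI Gene 85030; chromosome 4, 152115528 to 152120119, plus strand). Its second RefSeq start held a match to the NF-kB motif 28 to 19 bases upstream, in capitals on chr4:152116305-152116334, which is shown because the gene fell while Tnfrsf9, also with a match, rose:

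Tnfrsf25 second start: aaaggggtctGGGGGCCTCCacttctcaga

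In spleen Tnfrsf25 stood at 14.5, 18.3, 10.5 and 13.9 CPM in WT-labelled and 12.8, 11.3 and 8.37 CPM in Flox-labelled libraries. In tumor it stood at 2.54, 3.77, 1.27 and 2.33 CPM in WT-labelled and 1.46, 1.79 and 0.788 CPM in Flox-labelled libraries, which are 7 to 35 counts per library. The tissues did not overlap, with 8.37 CPM in the lowest spleen and 3.77 CPM in the highest tumor library. The log2 fold change was -2.72 ± 0.326 (SE; 95% limits -3.42 to -2.02; adjusted p = 8.82e-05), with means of 12.8 ± 3.20 and 1.99 ± 0.988 CPM (SD, n = 7 and 7).

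Tnfrsf1a (NCBI Gene 21937; chromosome 6, 125349723 to 125362483, plus strand) encodes TNFR1, the TNF receptor with a death domain, and lies 112586 bases from Cd27. It stood at 7.27, 7.33, 5.82 and 6.20 CPM in WT-labelled and 4.31, 5.97 and 4.94 CPM in Flox-labelled spleen libraries. In tumor it stood at 5.47, 6.99, 4.64 and 7.60 CPM in WT-labelled and 9.40, 5.49 and 8.44 CPM in Flox-labelled libraries. The tissues overlapped, with a log2 fold change of 0.20 ± 0.262 (SE; 95% limits -0.36 to 0.77; adjusted p = 0.619, edgeR). The upper limit lay below the lower limit of Tnfrsf1b, the gene of the other TNF receptor, but the difference between the 2 genes was not tested.

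Fas (NCBI Gene 14102; chromosome 19, 34290647 to 34327775, plus strand) encodes the receptor for Fas ligand that triggers apoptosis through FADD and caspase-8. Spleen libraries held 11.1, 10.3, 10.2 and 97.4 CPM in the WT-labelled and 14.4, 7.84 and 6.87 CPM in the Flox-labelled group. Tumor libraries held 7.81, 6.13, 6.62 and 9.68 CPM in the WT-labelled and 5.12, 2.17 and 7.21 CPM in the Flox-labelled group. Apart from spleen WT replicate 4, the tissues were close and overlapped. The log2 fold change was -1.63 ± 0.580 (SE; 95% limits -2.87 to -0.38; adjusted p = 0.0582, edgeR) and -0.72 without that library (adjusted p = 0.145, edgeR). It passed without spleen WT replicate 2 (-1.78, adjusted p = 0.0447), without spleen WT replicate 3 (-1.78, adjusted p = 0.0476) or without tumor Flox replicate 3 (-1.84, adjusted p = 0.0476), so the call for Fas turned on single libraries.

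**Figure D3:**
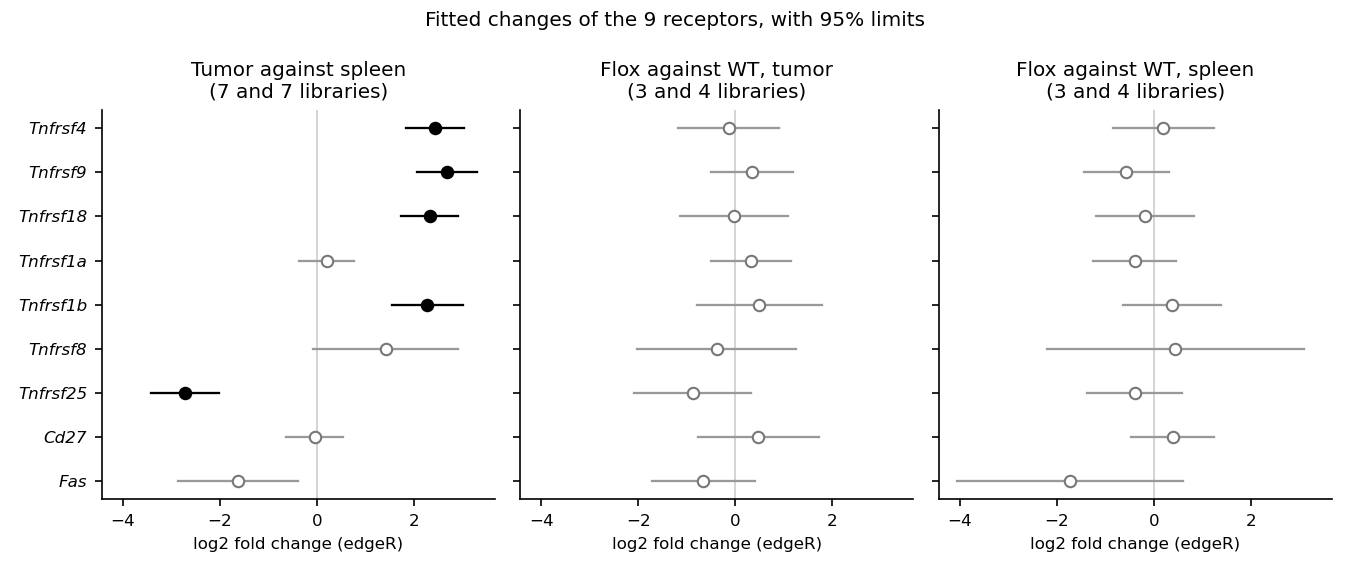
Fitted log2 fold changes (edgeR) of the 9 receptor genes with 95% limits, for tumor against spleen (left) and for Flox-labelled against WT-labelled libraries in tumor (middle) and spleen (right); filled points passed the adjusted threshold. In the left panel 5 points are filled, from -2.72 for Tnfrsf25 to 2.68 for Tnfrsf9, and in the other panels 0 are.

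Levels of different genes were compared as CPM per kilobase of exon. Tnfrsf9 was the highest of the 9 in every group, at 76.1 ± 29.2 in WT-labelled spleen (SD, n = 4), 51.5 ± 6.90 in Flox-labelled spleen (n = 3), 370.5 ± 95.6 in WT-labelled tumor (n = 4) and 478 ± 140.1 in Flox-labelled tumor (n = 3), all CPM per kilobase. Its range was clear of the next gene in 3 groups and overlapped it in Flox-labelled spleen. In WT-labelled spleen the order below it was Cd27 (28.3 CPM per kilobase), Tnfrsf4 (27.3), Tnfrsf1b (21.1), Tnfrsf18 (17.8), Fas (15.6), Tnfrsf25 (6.28), Tnfrsf8 (5.37) and Tnfrsf1a (2.57), and each neighbour in that order overlapped the next. The place of Fas rested on spleen WT replicate 4, at 47.2 CPM per kilobase against 4.93 to 5.36 in the other libraries of that group. In WT-labelled tumor Tnfrsf4 was second at 162 CPM per kilobase, before Tnfrsf1b (98.8), Tnfrsf18 (85.3), Cd27 (26.6), Tnfrsf8 (18.3), Fas (3.67), Tnfrsf1a (2.38) and Tnfrsf25 (1.09). There the ranges of Tnfrsf4 and Tnfrsf1b, of Tnfrsf1b and Tnfrsf18, and of Cd27 and Tnfrsf8 overlapped. Cd27 was thus the second in spleen and the fifth in tumor with nearly the same level, and Tnfrsf25 stood last in tumor. The Flox-labelled groups had Cd27 as the second in spleen (37.2 CPM per kilobase) and the fifth in tumor (37.5).

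Of the 9 genes, 6 lie on chromosome 4, within 10816527 bases, with 2 on chromosome 6 and 1 on chromosome 19. The 5 that passed are all on chromosome 4, as is Tnfrsf8. All 9 genes were found in the RefSeq promoter table of GRCm38.p6, with 11 windows of 250 bases upstream. The NF-kB motif matched in 3 of the 11 windows (Tnfrsf9 second start, Tnfrsf8 and Tnfrsf25 second start), against 7.28% of 32544 windows in the table. The AP-1 motif TGANTCA also matched in 3 (Tnfrsf9 second start, Tnfrsf8 and Fas), against 6.73%. In both counts the match of the Tnfrsf9 second start lay within an annotated exon of that gene. The forkhead motif GTAAACA and the RUNX motif TGTGGTT matched in 0 of 11, against 3.17% and 4.41%. Motif searches took both strands, overlapping matches in a window counted once, no motif was counted as a bound site, and genes with and without a match were both among those that rose.

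Flox-labelled and WT-labelled libraries were compared within each tissue, as the study planned it, to ask what deletion of Il23r does in Tregs. In tumor, 0 of the 9 receptor genes passed in edgeR, 0 had an unadjusted p under 0.05, 0 passed in DESeq2 and 0 in limma voom. Among all 10777 genes tested in tumor 0% passed in edgeR, with 871 at an unadjusted p under 0.05. DESeq2 called 266 genes, or 3.91% of those it tested, and voom 1 gene. All 9 receptor genes overlapped between the labels, where 5% of all genes tested did not. The log2 fold changes of the 9 had a median of -0.03 and lay between -0.88 ± 0.518 (SE) for Tnfrsf25 and 0.49 ± 0.551 for Tnfrsf1b.

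The limits of these differences were narrowest for Tnfrsf1a and Tnfrsf9. For Tnfrsf9 in tumor, 1008 ± 260.2 CPM in WT-labelled (SD, n = 4) and 1301 ± 381 CPM in Flox-labelled libraries (n = 3) gave a log2 fold change of 0.34 with 95% limits of -0.51 to 1.20 (adjusted p = 0.802, edgeR). For Tnfrsf4 the log2 fold change was -0.14, with limits of -1.18 to 0.90 (adjusted p = 0.951, edgeR), and for Tnfrsf18 -0.03, with limits of -1.15 to 1.08 (adjusted p = 0.992, edgeR). A 2-fold decrease thus lay within the limits of both genes, and a 2-fold increase within those of Tnfrsf18. Tnfrsf1b depended on 1 library: its log2 fold change of 0.49 became -0.18 without tumor Flox replicate 1, which held 936 CPM. Tnfrsf8 (-0.39), Cd27 (0.48), Tnfrsf1a (0.32) and Fas (-0.66) had limits that included 0, as did Tnfrsf25, whose limits on the log2 scale were -2.08 to 0.33.

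In spleen, 0 of the 9 passed in edgeR, 0 had an unadjusted p under 0.05, and 0 passed in DESeq2 or voom. Of all 10935 genes tested there 0% passed in edgeR, with 750 at an unadjusted p under 0.05, while DESeq2 called 124 (1.24% of those it tested) and voom 0. All 9 overlapped between the labels, against 5.88% of genes tested that did not. The log2 fold changes had a median of -0.17. The lowest was that of Fas at -1.73 ± 1.01 (SE; 95% limits -4.06 to 0.60; adjusted p = 0.715, edgeR), which came from the 97.4 CPM in WT replicate 4 and was -0.10 without it. Tnfrsf9 was at 140.2 ± 18.8 CPM in Flox-labelled (SD, n = 3) and 207 ± 79.4 CPM in WT-labelled libraries (n = 4), a log2 fold change of -0.57 with limits of -1.44 to 0.31 (adjusted p = 0.752, edgeR).

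Whether the label mattered differently in the 2 tissues was tested as a difference of the log2 fold changes over all 14 libraries. Again 0 of the 9 receptor genes passed in edgeR, DESeq2 or voom and 0 had an unadjusted p under 0.05. Of the 12008 genes tested, 0% passed in edgeR, 1296 had an unadjusted p under 0.05, and DESeq2 called 157 (1.63% of those it tested) and voom 0. The smallest p among the 9 was that of Tnfrsf9, whose difference was 0.93 ± 0.508 (SE; 95% limits -0.16 to 2.03; adjusted p = 0.522, edgeR). The differences of Tnfrsf4 (-0.32 ± 0.555), Tnfrsf18 (0.15 ± 0.549), Tnfrsf1b (0.13 ± 0.687) and Tnfrsf25 (-0.48 ± 0.626) were all smaller than their SE.

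Genes that act with these receptors were taken from 4 lists with 79 genes in all. Their counts stand beside 12.3% higher and 10.2% lower in tumor over all genes tested between tissues. Of the TNF superfamily ligands 11 of 18 could be tested between tissues, and 2 were higher and 3 lower in tumor, with a median log2 fold change of -0.39. Cd70, the ligand of CD27, rose from 0.104 ± 0.105 to 1.49 ± 1.18 CPM (SD, n = 7 and 7; log2 fold change 3.52, adjusted p = 0.00425, edgeR). Tnfsf9, the ligand of CD137, rose from 0.867 to 3.65 CPM (log2 fold change 2.22, adjusted p = 0.0146, edgeR). Both ligands stayed at a few CPM, with 8 counts of Cd70 in all spleen libraries together. Cd40lg, the ligand of CD40 that helper T cells use, fell from 13.2 ± 8.20 to 0.618 ± 0.433 CPM (log2 fold change -4.35, adjusted p = 0.000131, edgeR). Tnfsf14, the ligand LIGHT, fell from 15.1 ± 19.5 to 0.266 ± 0.220 CPM (-5.81, adjusted p = 0.00168, edgeR), and Tnfsf8, the ligand of CD30, from 22.8 to 3.99 CPM (-2.75, adjusted p = 0.0327, edgeR). The call for Tnfsf8 was lost in 7 of 14 fits with a library left out, where its adjusted p ranged from 0.00364 to 0.0761. Without tumor Flox replicate 2 its log2 fold change was -3.44. Spleen WT replicate 4 held 56.4 CPM of Tnfsf14 against 1.33 to 19.9 CPM in the other spleen libraries, and without it the log2 fold change of Tnfsf14 was -4.84 (adjusted p = 0.00396, edgeR). Among Flox-labelled libraries alone Tnfsf14, Tnfsf9 and Tnfsf8 did not pass.

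Of the other TNF receptor genes, 13 of 19 were tested, with 3 higher and 3 lower in tumor and a median of 1.01. Tnfrsf26 fell from 2328 ± 694 to 364 ± 308 CPM (SD, n = 7 and 7; log2 fold change -2.85, adjusted p = 0.00504, edgeR). Tnfrsf26 has the close relatives Tnfrsf22 and Tnfrsf23, and the sources used here do not say how the counting split shared reads. Ltbr, the lymphotoxin beta receptor gene, rose from 0.240 to 1.81 CPM (3.08, adjusted p = 0.00844, edgeR), and Tnfrsf12a, which encodes the receptor of TWEAK, from 0.235 to 1.86 CPM (2.85, adjusted p = 0.00557, edgeR). Relt fell from 21.4 ± 26.3 to 2.48 ± 0.746 CPM (-3.10, adjusted p = 0.00834, edgeR). Tnfrsf10b, the TRAIL receptor gene, rose (1.83, adjusted p = 0.0367, edgeR) and Tnfrsf13c, the BAFF receptor gene of B cells, fell (-3.12, adjusted p = 0.0331, edgeR). These last calls were lost in 9 of 14 and in 6 of 12 fits with a library left out, with adjusted p up to 0.0875 and 0.0947. Relt was at -2.30 without spleen WT replicate 4 and at -2.32 without spleen Flox replicate 1, and Relt, Tnfrsf10b and Tnfrsf13c did not pass in voom, nor Tnfrsf10b without the filter on low counts. Tnfrsf26 was at -3.48 without tumor WT replicate 3, Ltbr at 3.68 without spleen Flox replicate 1, and Tnfrsf13c at -2.51 without spleen Flox replicate 3. Among WT-labelled libraries alone Tnfrsf26, Tnfrsf12a, Relt and Tnfrsf10b did not pass, and among Flox-labelled libraries alone Tnfrsf12a, Relt, Ltbr and Tnfrsf10b.

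Adaptors and death-pathway proteins mostly did not pass. All 23 were tested, and 1 was higher and 1 lower, against 12.3% and 10.2% of all genes tested. The median log2 fold change was 0.36. Siva1, whose product binds CD27, rose (log2 fold change 0.91, adjusted p = 0.034, edgeR) and Traf5, an adaptor of OX40, CD27 and CD30, fell (-1.05, adjusted p = 0.029, edgeR). Siva1 lost the call in 9 and Traf5 in 4 of 14 fits with a library left out, with adjusted p up to 0.0745 and 0.0586, and neither passed without the filter on low counts or in either label alone.

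The NF-kB list had the largest share of higher genes among the 4 lists. Of its 19 genes 7 were higher and 1 was lower, against 12.3% and 10.2% of all genes tested, and the median was 0.58. Nfkbia, which encodes the inhibitor that NF-kB itself induces, stood at 96.3 to 142 CPM in spleen and at 293 to 553 CPM in tumor, without overlap. Its log2 fold change was 1.85 ± 0.231 (SE; adjusted p = 0.000121, edgeR). Tnfaip3, the gene of the deubiquitinase A20 that restrains TNF receptor signalling, rose from 178 ± 98.0 to 890.2 ± 664 CPM (SD, n = 7 and 7; 2.19, adjusted p = 0.00688, edgeR), also without overlap. Nfkbie (2.10, adjusted p = 0.00627), Nfkb2 (1.69, adjusted p = 0.00986) and Bcl3 (1.14, adjusted p = 0.0165) rose as well in edgeR, and Ikbkb, the gene of a kinase that releases NF-kB, fell (-2.26, adjusted p = 0.00616). Bcl3 did not pass without the filter on low counts. Bcl3, Nfkb2 and Nfkbie did not pass among WT-labelled libraries alone, nor Bcl3, Nfkb2, Tnfaip3 and Ikbkb among Flox-labelled libraries alone.

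**Figure D4:**
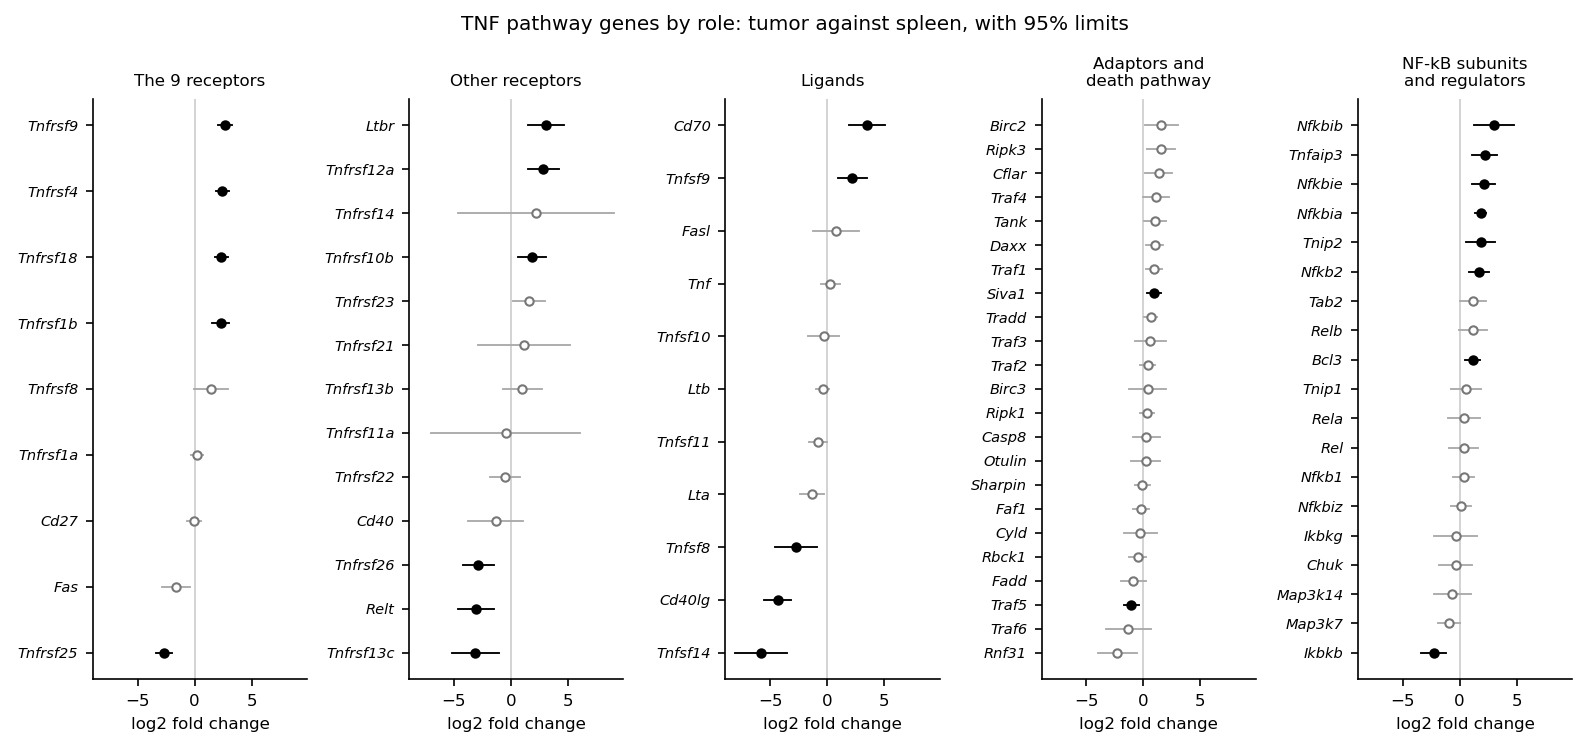
Fitted log2 fold changes of tumor against spleen (edgeR) with 95% limits, 1 row per gene tested and 1 panel per list; filled points passed the adjusted threshold. Filled points number 5 of 9, 6 of 13, 5 of 11, 2 of 23 and 8 of 19 from left to right, where 22.5% of all genes tested passed.

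Between the labels, 0 genes of the 4 lists passed in edgeR in either tissue or in the difference between tissues. In tumor 9 ligands, 8 other receptors, 23 adaptors and 19 NF-kB genes were tested, of which 2, 0, 2 and 3 had an unadjusted p under 0.05. Among those with the smallest p, Tnfsf10, which encodes TRAIL, stood at 18.0, 19.3, 35.6 and 15.0 CPM in WT-labelled and 41.8, 171 and 84.1 CPM in Flox-labelled tumor libraries. Its log2 fold change was 2.15 ± 0.699 (SE; adjusted p = 0.584, edgeR), and the labels did not overlap. Traf3, the adaptor gene that holds back noncanonical NF-kB signalling, stood at 39.5, 46.6, 45.9 and 41.4 CPM in WT-labelled and 480.7, 113 and 92.6 CPM in Flox-labelled libraries (2.38 ± 0.721, SE; adjusted p = 0.584, edgeR). Traf6 stood at 15.6, 303, 117 and 25.4 CPM in WT-labelled and 5.01, 10.2 and 9.68 CPM in Flox-labelled libraries (-3.82 ± 1.23, SE; adjusted p = 0.584, edgeR). In DESeq2 these 3 and Tnip1 passed in tumor, with adjusted p of 0.0319 for Tnfsf10, 0.0209 for Traf3, 0.00813 for Traf6 and 0.0392 for Tnip1. For the difference between tissues Tnfrsf14 passed in DESeq2 (adjusted p = 0.0128). Its counts lay mostly in tumor WT replicate 3 and spleen Flox replicates 1 and 2. In edgeR Traf3 was at 1.24 without tumor Flox replicate 1, Traf6 at -2.72 without tumor WT replicate 2, Tnfsf10 at 1.46 without tumor Flox replicate 2 and Tnip1 at 1.43 without tumor Flox replicate 1. Nfkb1 stood at 101 ± 17.1 CPM in Flox-labelled (SD, n = 3) and 323 ± 184 CPM in WT-labelled tumor libraries (n = 4; -1.67, adjusted p = 0.584, edgeR).

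In spleen the smallest p values of the lists were those of Nfkbib (log2 fold change 1.68, adjusted p = 0.674, edgeR), Tnfrsf11a (-4.07, adjusted p = 0.674, edgeR) and Birc3 (-1.78, adjusted p = 0.674, edgeR) within their lists. Spleen WT replicate 2 held 11.7 CPM of Tnfrsf11a against 0 to 1.32 CPM in the other spleen libraries, and without it the gene was not tested. The same library held 323 CPM of Birc3 against 18.7 to 149 CPM, and without it Birc3 was at -0.98. Single libraries stood out for some receptor genes outside the 9. Tnfrsf11a, which encodes RANK, had 1268 counts in tumor Flox replicate 3 and at most 150 in any other library, and Tnfrsf21 had 368 counts in that library and at most 11 elsewhere. Tnfrsf14 had 209 counts in tumor WT replicate 3 and 96 and 92 in spleen Flox replicates 1 and 2, with 0 to 8 in the others. Fold changes of these 3 genes between tissues are not given.

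For each of the 9 genes, the most similar genes were sought by Pearson's r of log2 CPM over the 14 libraries, among 4291 genes with a mean log2 CPM of 4 or more. These r are descriptions: the libraries share the split into tissues, which by itself gives a high r to any genes that differ strongly between tissues. Ly6a, which encodes the surface protein Sca-1, came first for both Tnfrsf4 (0.987) and Tnfrsf18 (0.989), followed by Tnfrsf18 itself (0.983) for Tnfrsf4 and Vim (0.988) for Tnfrsf18. Isg20 (0.958) and Ly6a (0.955) came first for Tnfrsf9, although within the tumor libraries r was -0.37 and -0.08. For Tnfrsf1b they were the enzyme genes Eno1 (0.931, with 0.179 within spleen and 0.740 within tumor) and Got1 (0.918, with 0.630 and 0.347). For Tnfrsf25 they were Skap1 (0.932), a T cell adaptor gene, and Arhgef3 (0.927), although r was -0.11 for Skap1 within spleen and -0.0086 for Arhgef3 within tumor. The 4 genes that did not pass between tissues had partners with lower r: Ucp2 (0.773) and Tle5 (0.767) for Tnfrsf1a, Zfp740 (0.827) and Cd200 (0.790) for Cd27, Actr2 (0.811) and Cbx3 (0.810) for Tnfrsf8, and Eif4g1 (0.846) and Trim26 (0.836) for Fas. For these partners, r within spleen and within tumor was 0.733 and 0.767 for Ucp2 and 0.872 and 0.670 for Tle5. It was 0.749 and 0.887 for Zfp740 and 0.832 and 0.826 for Cd200. For Actr2 it was 0.796 and 0.476, for Cbx3 0.909 and 0.122, for Eif4g1 0.888 and 0.719, and for Trim26 0.890 and 0.238. All partners were picked by r over these same libraries, so r within a tissue is not a separate test.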

How the data were processed

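The 14 libraries were deposited by the authors as raw counts in 1 table. Per the labels' protocols, RNA came from a Qiagen micro-scale column kit and GeneWiz prepared ultra-low-input libraries. Per the submitters' processing notes the genome build was mm10. The sources used here do not name the aligner, the counting tool, its annotation or its use of strand. Of 27179 gene numbers, 25275 matched a RefSeq symbol, and the 1904 others (1.25 to 1.95% of counts per library) were kept for testing.

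The deposited counts entered edgeR 4.0.16 in R 4.3.3 (TMM, filterByExpr by group, quasi-likelihood F test), with p-values adjusted over all genes tested at a threshold of 0.05. Only the 2 groups compared entered the fits within a tissue. CPM are counts over the TMM-adjusted library size. SEs were derived as the absolute log2 fold change over the square root of F, and 95% limits from them. Levels between genes used union exon lengths of GENCODE M21. Motifs were searched in 250 bases before each RefSeq start (GRCm38.p6), and bases in annotated exons were not printed except in 30-base sites. Alternatives were DESeq2 1.42.0, limma 3.58.1 voom with quality weights, no filter, RLE size factors, 5 CPM in 3 libraries as the filter, the replicate number as a block, both WT replicate 2 libraries left out, all 14 libraries in 1 fit, each genotype label alone for the tissues, and each library left out.

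The 9 members, the gene lists and the tests were chosen with earlier results of these data known. Named pathway genes were, per list and contrast, up to 6 that passed by smallest p, and otherwise the 3 with the smallest p, of which some are not printed. A gene of the adaptor list is not reported here and was left out of its counts and median. For each member the 2 most similar genes were named, without predicted genes and antigen receptor segments. Libraries of a group were compared for duplicates and differed by a chi-square per degree of freedom of 101 to 444. The fits were tested on simulated data. Figures were drawn with matplotlib 3.10.9.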

Additional observations from a re-analysis of the deposited data

Results flagged for a closer look

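In each group of 4 libraries, the values of the 9 receptor genes and of the named pathway genes were searched for a library that stood far from the other 3. Of 96 groups 12 held one. The rule used flags 5% of groups by chance if values are normally distributed. CPM need not be, and many of the pathway genes were named for their small p in these same libraries. The 12 groups can therefore not be set against that share. Of the receptor genes, Tnfrsf9 was at 619.9 CPM in tumor WT replicate 1 and at 1112 to 1171 CPM in the other 3. Fas was at 97.4 CPM in spleen WT replicate 4 and at 10.2 to 11.1 CPM in the others. That library also stood apart for Relt, at 63.7 CPM against 4.74 to 9.42 CPM, and for Traf5, at 13.7 CPM against 11.6 to 11.7 CPM. Tumor WT replicate 1 stood apart for Cd70, at 3.91 CPM against 0.858 to 1.27 CPM, and for Ikbkb, at 34.2 CPM against 20.0 to 21.1 CPM. Spleen WT replicate 2 held 12.0 CPM of Tnfrsf13c against 0.376 to 1.84 CPM, and 11.7 CPM of Tnfrsf11a against 0.197 to 1.32 CPM. Tumor WT replicate 3 held 1.27 CPM of Tnfrsf12a against 2.04 to 2.15 CPM, and 29.4 CPM of Tnfrsf14 against 0.123 to 1.17 CPM. It also held 305 CPM of Casp8, the initiator caspase gene of death receptors, against 32.4 to 55.8 CPM. Tumor WT replicate 2 held 15.9 CPM of Lta against 2.11 to 3.19 CPM.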

How the results depend on the processing

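Tnfrsf4, Tnfrsf9, Tnfrsf18 and Tnfrsf25 kept their direction and passed between tissues under all alternatives run, and Tnfrsf1b under all but the fit of Flox-labelled libraries alone. The number of all genes passing between tissues was 2699 and became 750 among WT-labelled and 847 among Flox-labelled libraries, fits of fewer libraries. Between the labels, where edgeR called 0 genes, DESeq2 called 266 in tumor, 124 in spleen and 157 for the difference. Voom called 1 gene in tumor. In spleen 1 gene passed with the filter of 5 CPM in 3 libraries, 1 without both WT replicate 2 libraries and 4 with all 14 libraries in 1 fit. With a library left out 0 to 1 genes passed in spleen (1 without WT replicate 2) and 0 to 1 for the difference (1 without tumor Flox replicate 1). The cause was not tested.

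Some values changed sign. Those with both values farthest from 0 were Fas in the difference (1.08, and -0.53 without spleen WT replicate 4), Tnfrsf13b in spleen (1.23, and -0.52 without Flox replicate 3) and Tnfrsf1b between the labels in tumor (0.49, and -0.18 without Flox replicate 1), apart from Fasl with the replicate block. Tnfrsf1b in the difference went from 0.13 to -0.55 without tumor Flox replicate 1. Between tissues the sign changed for Tnfrsf1a (-0.11 among WT-labelled libraries) and Cd27 (0.0014 in voom, 0.0300 among Flox-labelled libraries, -0.157 to 0.0364 with a library left out). Between the labels in tumor it changed for Tnfrsf18 (0.0337 without both WT replicate 2 libraries, -0.147 to 0.0567 with a library left out) and Tnfrsf1b (-0.18 to 0.85). In spleen it changed for Tnfrsf18 (0.0175 without both WT replicate 2 libraries, -0.289 to 0.0175), Tnfrsf4 (-0.0586 to 0.452) and Tnfrsf13b (-0.52 to 1.70). For the difference it changed for Tnfrsf18 (-0.0129 without both WT replicate 2 libraries, -0.0408 to 0.265), Tnfrsf1b (-0.55 to 0.46), Cd27 (-0.0573 to 0.367) and Fas (-0.53 to 1.48).

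The replicate number as a block left 2050 genes and 5 of the 9 receptor genes passing between tissues, and 0 genes in the other comparisons. With the block Fasl in spleen went from -1.80 to 0.36 and Tnfrsf1b in the difference from 0.13 to -0.0303, both against the direction without it. Deviations of same-numbered libraries correlated at -0.0301 to 0.0537, and 1 of 8, 0 of 6, 4 of 6 and 0 of 6 libraries correlated best with their own number. With so few libraries per group these values cannot show whether same-numbered spleen and tumor libraries came from the same mouse. Both WT replicate 2 libraries held Ddx3y, at 29.2 CPM in spleen and 127 CPM in tumor. The spread limits what could be seen: over all genes tested, the median SE on the log2 scale was 0.743 between the labels in tumor, 0.606 in spleen and 1.13 for the difference.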
